A study of Homo sapiens with 9 samples.

Results

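The genes described here are 44 members of the kinetochore and the spindle assembly checkpoint. They were chosen by name and found as 44 of the 45754 genes in the deposited table of expression values. KNL1 is listed there under its older name CASC5 and was matched by its gene ID, 57082. By role they fall into 14 genes of the inner kinetochore, 10 of the outer kinetochore, 3 of the SKA complex, 5 of the corona, 6 of the spindle checkpoint, 2 shugoshins and 4 of the chromosomal passenger complex.

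The kinetochore is the protein assembly that joins a chromosome's centromere to the microtubules of the mitotic spindle. Its inner layer sits on nucleosomes that carry the histone variant CENPA, and its outer layer, built on the KNL1, MIS12 and NDC80 complexes, binds the microtubules. The spindle checkpoint holds cells in mitosis until every kinetochore is attached, and the chromosomal passenger complex releases faulty attachments. Most of these genes are transcribed mainly in late cell cycle phases, so that their RNA is abundant in dividing tumour cells.

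RNA was sequenced from 9 libraries of cells labelled H441, a human lung adenocarcinoma line, with 3 libraries per group. The groups were 10 µM of the compound RSGL for 24 h, 10 µM of the compound BSGL for 24 h, and 0.1% DMSO, the solvent control, for 24 h. All were grown in the same serum-supplemented medium, and both compounds are known here by their code names alone. Nothing in the labels says that replicates were separate cultures, and p-values therefore measure the spread between samples, part of which may be technical. Levels are FPKM as deposited by the authors, that is fragments scaled to gene length and library size.

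The libraries held 16720414 to 18738947 fragments in genes, and RSGL libraries stood apart from the other 6 on the first principal component (59.6% of the variance). The labels disagree on the cells, since a genotype tag names A549 for the RSGL libraries and H460 for the BSGL and control libraries. By these tags the compound and the cell line cannot be told apart. Below, fell or rose with RSGL means only lower or higher in RSGL libraries. Of 8006 genes with a mean of at least 5 FPKM in RSGL or control libraries, 0 had a mean of 0.05 FPKM or lower in the other group. How many such genes different lines would show is not known here, so this count cannot decide the question. Whether the groups differ in cell line was not tested. Of 9 distal lung genes that H441 cells are known to express, 0 reached 1 FPKM in 3 libraries, and their summed level was 1.06 to 1.197 FPKM in RSGL, 1.36 to 1.59 in BSGL and 1.46 to 2.29 in control libraries. All 10 targets of the factor NRF2 listed for cells that lack working KEAP1 (A549 and H460 are examples) passed that filter, with summed levels of 1553 to 1608 FPKM in RSGL, 2119 to 2191 in BSGL and 2275 to 2301 in control libraries. In RSGL libraries 8 of the 10 fell and 2 rose, beside 27.6% of all tested genes called lower and 27.2% called higher, and in BSGL libraries 1 fell, beside 0.0861% of all tested genes called in either direction. The listed genes therefore do not bear out the label H441, and the cells are called by their treatment alone.

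Markers of other cell types were low. Fibroblast genes passed the filter in 3 of 7 cases and summed to 7.90 to 8.16 FPKM in RSGL, 10.3 to 11.1 in BSGL and 9.93 to 11.3 in control libraries. Of 7 leukocyte genes 1 passed, CD3E and TYROBP were at 0 throughout, and the sum was 0.186 to 0.516 FPKM in RSGL, 1.29 to 1.99 in BSGL and 2.02 to 2.25 in control libraries. Of those that passed, 2 fibroblast genes (COL1A1 and THY1) and 1 leukocyte gene (CD14) fell in RSGL libraries, beside 27.6% of all tested genes. COL1A1 and CD14 were under 1 FPKM in every RSGL library and passed the filter only through the other groups, so nothing is drawn from their falls. The part of these markers in the results was not tested.

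Most kinetochore and checkpoint genes fell with RSGL. Of the 42 that passed the filter on low values, 37 fell, 1 rose (CENPH) and 4 were not called (CENPT, NSL1, MIS12 and MAD1L1). The summed FPKM of all 44 was 562.5, 556 and 558 in RSGL libraries, 875.2, 873.1 and 873.3 in BSGL libraries, and 847.7, 856 and 871 in control libraries. All 3 RSGL sums lay below all others, while the 3 BSGL sums lay just above those of control. The small gap between BSGL and control sums was not tested, and 0 of the 42 tested members were called with BSGL. The deepest falls were in CENPF, a corona protein, and in BIRC5, the passenger complex subunit survivin.

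The test behind these calls was limma on log2(FPKM + 1), fitted to all 9 libraries over the 12775 genes that reached 1 FPKM in 3 or more of them. A gene was called at a Benjamini-Hochberg adjusted p under 0.05 over those genes. RSGL libraries differed from control across much of the transcriptome, with 27.6% of all tested genes called lower and 27.2% called higher. The 37 of 42 is to be read against that background. In both, the compound and the tagged cell line cannot be told apart. A fall of at least 0.5 on the log2 scale was reached by 26 of the 42 members and by 7.26% of all tested genes. The median change was -0.59 over the 42 members, against -0.0009 over all tested genes, whose quartiles lay at -0.21 and 0.21. In 37 members every RSGL library lay below every control library, as it did in 30.8% of all tested genes. As the +1 understates the change of genes with low levels, percentages of control are given from FPKM itself, and the median member stood at 63.6% of control in RSGL libraries.

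**Figure D1:**
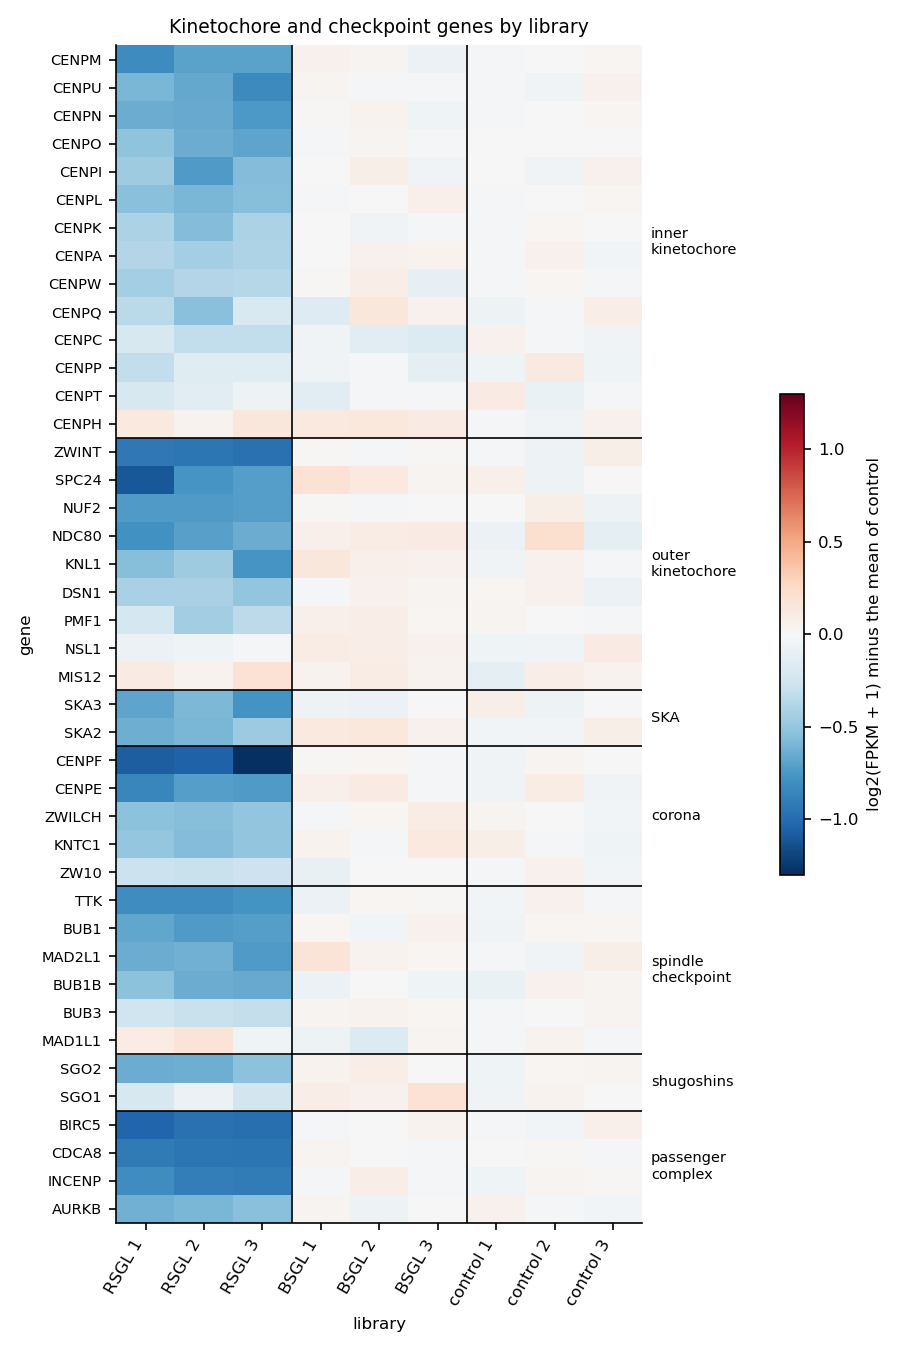
Each row is 1 of the 42 tested genes, grouped by role, and each column 1 library, RSGL, BSGL and control from left to right. Colour gives log2(FPKM + 1) minus the mean of the control libraries: 37 genes are called lower in the RSGL columns, while the BSGL columns stay near 0.

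The genes that mark dividing cells moved with these results. MKI67, TOP2A, PCNA, CCNB1 and CCNA2 all fell with RSGL, 5 of 5, beside 27.6% of all tested genes called lower. All 5 fell by at least 0.5 on the log2 scale, as did 7.26% of all tested genes. Their summed level was 275.1 to 283.3 FPKM in RSGL libraries, 549.3 to 565.9 in BSGL libraries and 540.4 to 569.1 in control libraries. Their part in the result was not tested. In bulk RNA, fewer dividing cells and less RNA of these genes per cell cannot be told apart.

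**Figure D2:**
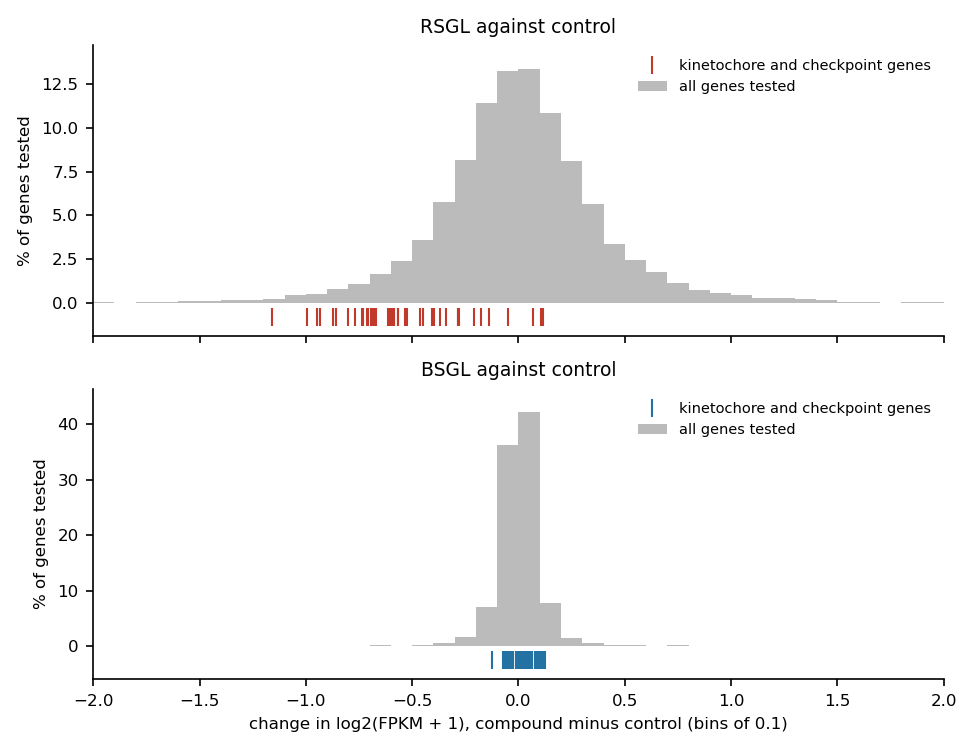
Grey bars give the share of all 12775 tested genes by change in log2(FPKM + 1), compound minus control, in bins of 0.1, and coloured ticks mark the 42 kinetochore and checkpoint genes. With RSGL (top) the ticks have a median of -0.59 and with BSGL (bottom) of 0.01; the axis spans -2 to 2, and changes beyond it are not drawn.

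The sequence around the start sites of the members was examined in windows of 300 bases, 250 before and 50 after the start, taken from RefSeq on GRCh38.p14. A window was found for 36 of the 44. The 8 without a window were BIRC5, TTK, CENPM, KNL1, CENPL, KNTC1, BUB3 and CENPH. Their changes with RSGL, from -0.995 (BIRC5) to 0.11 (CENPH) on the log2 scale, do not enter the medians by motif. The letters TTTGAA, the core of the cell cycle genes homology region that the MuvB complexes recognise, were searched on both strands (TTCAAA on the other). They occurred in 16 of 36 windows (44.4%), against 15.4% of 27305 windows of all genes and 9.34% of 9544 windows of tested genes. The 16 include SPC25 and SKA1, which were not among the tested genes. The variant TTCGAA, which reads alike on both strands, was present in 4 (11.1%), against 1.45% of all and 1.76% of tested windows. CCAAT (or ATTGG), the box bound by the factor NF-Y, was present in 23 (63.9%), SPC25 among them, against 35.7% and 36.8%. The E2F site, spelled TTTGGCGC, TTTCCCGC or TTTCGCGC, was present in 3 (8.33%), against 2.79% and 4.85%. The tested members with TTTGAA had a median change of -0.68 (n = 14) with RSGL and those without it -0.46 (n = 20). For the other motifs the medians went the other way. They were -0.55 with TTCGAA (n = 4) and -0.59 without it (n = 30), -0.58 with CCAAT (n = 22) and -0.60 without it (n = 12), and -0.41 with an E2F site (n = 3) and -0.59 without it (n = 31). These are matches of letters in a window, given without a test, and their part in the changes with RSGL was not tested.

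The last 120 bases before the RefSeq start are shown for 3 genes that fell to about the same percentage of control and hold both TTTGAA and CCAAT there, and for 2 that were not called, all chosen after their values were seen. Each is written 5′ to 3′ on the gene's own strand, with matches to TTTGAA and CCAAT on either strand in capitals.
ZWINT, chr10:56361260-56361379, minus strand: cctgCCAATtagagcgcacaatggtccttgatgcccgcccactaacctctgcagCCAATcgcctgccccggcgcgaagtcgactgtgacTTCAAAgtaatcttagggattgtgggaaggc
CDCA8, chr1:37692396-37692515, plus strand: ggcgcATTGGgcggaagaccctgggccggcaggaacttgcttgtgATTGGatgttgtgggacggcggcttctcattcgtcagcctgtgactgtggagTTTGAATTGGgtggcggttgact
INCENP, chr11:62123891-62124010, plus strand: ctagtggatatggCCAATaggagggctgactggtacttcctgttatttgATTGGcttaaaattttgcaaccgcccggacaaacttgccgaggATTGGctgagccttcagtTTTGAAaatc
MIS12, chr17:5486254-5486373, plus strand: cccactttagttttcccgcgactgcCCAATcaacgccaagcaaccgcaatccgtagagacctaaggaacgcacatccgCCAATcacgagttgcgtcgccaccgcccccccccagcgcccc
MAD1L1, chr7:2232946-2233065, minus strand: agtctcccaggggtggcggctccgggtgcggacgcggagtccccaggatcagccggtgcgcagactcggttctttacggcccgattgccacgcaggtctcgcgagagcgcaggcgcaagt
In CDCA8 the TTTGAA and the last ATTGG share 1 base. MIS12 has CCAAT in this stretch and no TTTGAA, and it also holds the E2F spelling TTTCCCGC, left in small letters. MAD1L1 has neither TTTGAA nor CCAAT. Members not shown here differ from this picture. CENPA, CENPC and ZW10 hold TTTGAA in their windows and were at 74.5%, 73.2% and 80.4% of control with RSGL. SPC24 and SGO2, whose windows lack it, were at 50.7% and 61.1%. All tested members with a window enter the medians by motif above. RefSeq's start and that of the deposited gene model are not the same base in ZWINT, CDCA8, INCENP and MAD1L1.

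In the chromosomal passenger complex all 4 genes fell, by a median of 0.90 on the log2 scale. The counts by role, here and below, stand beside 27.6% of all tested genes called lower and 27.2% called higher. BIRC5 (gene ID 332, chr17:78214196-78225635 of GRCh38, plus strand) encodes survivin, which anchors the complex at the centromere. Its level was 36.3, 37.9 and 37.8 FPKM in RSGL libraries, 74.5, 75.1 and 78.1 in BSGL libraries, and 74.0, 73.4 and 79.0 in control libraries. RSGL libraries were the lowest 3 and did not overlap the others, whereas BSGL and control libraries did overlap. The RSGL mean was 49.5% of control (log2 -0.995, SE 0.0373, adjusted p 2.42e-08 by limma). CDCA8 (gene ID 55143, chr1:37692401-37709719, plus strand) encodes borealin, a subunit that binds survivin. It stood at 14.3, 13.9 and 13.9 FPKM in RSGL, 28.5, 27.9 and 27.3 in BSGL, and 27.9, 28.1 and 27.3 in control libraries. The RSGL libraries again lay well below the rest, at 50.6% of control (log2 -0.94, SE 0.0316, limma adjusted p 1.30e-08). INCENP, the scaffold of the complex, averaged 9.71 ± 0.403 FPKM with RSGL, 18.8 ± 0.912 with BSGL and 18.6 ± 0.661 in control libraries (SD, n = 3 each). The kinase of the complex, AURKB, fell to 37.1 ± 1.11 FPKM with RSGL, against 55.8 ± 2.09 with BSGL and 56.2 ± 2.05 in control libraries.

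Among the corona genes, whose products form the outermost and transient layer, all 5 fell, beside 27.6% of all tested genes called lower. CENPF (gene ID 1063, chr1:214603181-214664574, plus strand) encodes a large coiled-coil protein that binds microtubules and dynein regulators. It had 12.8, 13.0 and 10.5 FPKM in RSGL libraries, 28.5, 28.6 and 27.7 in BSGL libraries, and 27.2, 28.9 and 28.2 in control libraries. RSGL library 3 was the lowest of all 9 for this gene. The RSGL mean was 43.0% of control (log2 -1.16, SE 0.0694, limma adjusted p 5.33e-07), the deepest fall of the 42 tested members. CENPE (gene ID 1062, chr4:103105806-103198409, minus strand) encodes a kinesin motor that carries chromosomes to the spindle equator. Its values were 3.76, 4.25 and 4.15 FPKM with RSGL, 8.03, 8.28 and 7.43 with BSGL, and 7.31, 8.19 and 7.32 in control libraries, with no overlap of RSGL with either group. It stood at 53.3% of control with RSGL (log2 -0.77, SE 0.0609, limma adjusted p 3.80e-06). The 3 subunits of the RZZ complex, which recruits dynein and checkpoint proteins, fell as well. ZWILCH and KNTC1 were at 67.9% and 66.7% of control with RSGL, and ZW10 at 80.4%.

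Of the 10 outer kinetochore genes 9 were tested, 7 fell and 2 were not called, with a median of -0.59. Among all tested genes 27.6% were called lower. ZWINT (gene ID 11130, chr10:56357257-56361302, minus strand) encodes the partner of KNL1 that links it to the RZZ complex. In RSGL libraries it had 36.7, 36.4 and 35.7 FPKM, in BSGL libraries 71.8, 70.0 and 71.8, and in control libraries 70.2, 67.9 and 74.8. The RSGL mean was 51.2% of control (log2 -0.95, SE 0.0374, limma adjusted p 3.37e-08), and no RSGL library overlapped the others. KNL1, the scaffold for checkpoint proteins, averaged 2.75 ± 0.403 FPKM with RSGL, 4.99 ± 0.205 with BSGL and 4.63 ± 0.199 in control libraries (SD, n = 3 each).

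The NDC80 complex, the main microtubule coupler, fell in all 3 of its tested subunits, beside 27.6% of all tested genes called lower. SPC24 (gene ID 147841, chr19:11145494-11155997, minus strand), whose product ties the complex to the inner layers, had 3.81, 5.07 and 5.29 FPKM with RSGL, 10.7, 10.3 and 9.60 with BSGL, and 9.81, 8.82 and 9.34 in control libraries. RSGL library 1 was the lowest, and SPC24 had the widest relative spread of the tested members in RSGL libraries, with a coefficient of variation of 16.9%. Its RSGL mean was 50.7% of control (log2 -0.86, SE 0.0939, limma adjusted p 4.00e-05). NDC80 and NUF2, which form the microtubule-binding end, were at 57.2% and 58.8% of control. The remaining subunit, SPC25, did not pass the filter on low values. It had 0.545, 0.311 and 0.448 FPKM with RSGL, 0.833, 0.879 and 2.69 with BSGL, and 0.851, 0.884 and 4.03 in control libraries. BSGL library 3 and control library 3 stood far above the others of their groups, on 17 to 234 fragments per library. The table places SPC25 and SKA1 on unplaced or alternate scaffolds rather than on their chromosomes, which holds for 3096 genes in all. Without the filter SPC25 was not called with RSGL (log2 -0.86, SE 0.412, limma adjusted p 0.198), and the part of the scaffold models in its values was not tested.

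**Figure D3:**
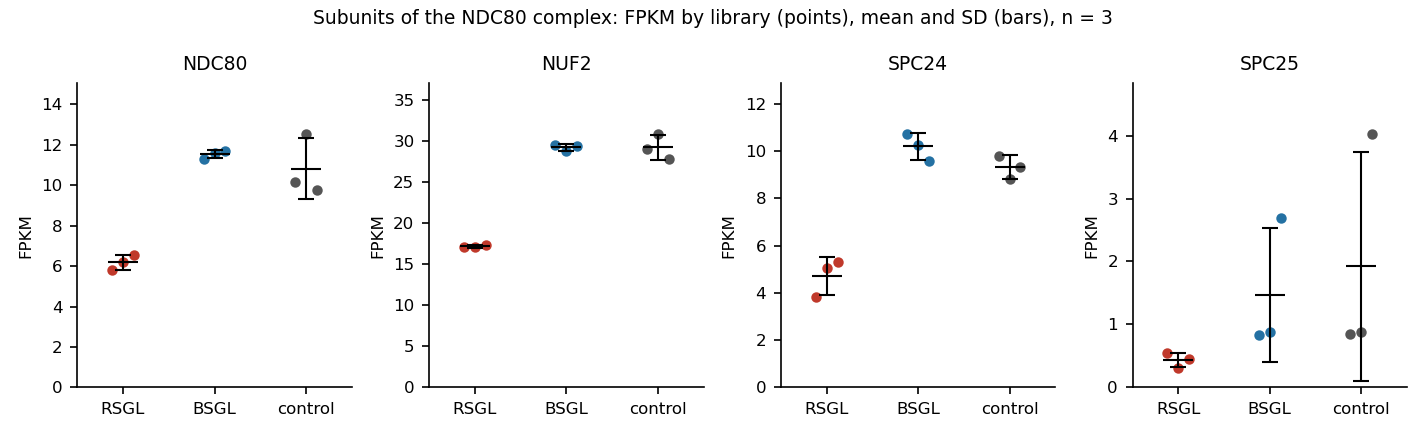
FPKM of the 4 NDC80 complex subunits in each library (points), with group means and SDs (bars, n = 3), for RSGL, BSGL and control from left to right. NDC80, NUF2 and SPC24 are lower in every RSGL library than in any other, and SPC25 is at 4.03 FPKM or lower, with 1 high library each in BSGL and control.

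The MIS12 complex, which bridges the inner and outer layers, divided. DSN1 and PMF1 fell to 71.9% and 77.5% of control with RSGL. MIS12 (gene ID 79003, chr17:5486374-5490814, plus strand) had 10.1, 9.62 and 10.7 FPKM with RSGL, 9.60, 9.96 and 9.62 with BSGL, and 8.40, 9.90 and 9.57 in control libraries. The groups overlapped, and the difference of RSGL from control was 0.12 on the log2 scale (95% interval -0.02 to 0.25, limma adjusted p 0.134). NSL1 (gene ID 25936, chr1:212726153-212798900, minus strand) had 2.12, 2.17 and 2.25 FPKM with RSGL, 2.52, 2.495 and 2.42 with BSGL, and 2.16, 2.19 and 2.54 in control libraries. Its RSGL and control libraries overlapped, with a difference of -0.05 (95% interval -0.18 to 0.08, limma adjusted p 0.51). NSL1 overlaps TATDN3 on the opposite strand, which rose with RSGL (log2 0.56, limma adjusted p 5.45e-05). Whether the authors counted by strand is not stated, and the level of NSL1 is therefore uncertain.

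In the SKA complex, which follows the ends of spindle microtubules together with NDC80, both tested genes fell. Over all tested genes 27.6% were called lower. SKA3 (gene ID 221150, chr13:21153595-21176602, minus strand) had 5.62, 6.11 and 5.19 FPKM with RSGL, 9.16, 9.06 and 9.63 with BSGL, and 10.2, 9.17 and 9.57 in control libraries. Its RSGL mean was 58.5% of control (log2 -0.68, SE 0.0586, limma adjusted p 6.68e-06), with no overlap. SKA2 (gene ID 348235, chr17:59109947-59155439, minus strand) had 21.8, 22.6 and 24.7 FPKM with RSGL, 37.7, 38.0 and 35.8 with BSGL, and 33.5, 33.6 and 36.5 in control libraries. RSGL stood apart from both other groups, which overlapped each other, at 66.7% of control (log2 -0.57, SE 0.0516, limma adjusted p 1.02e-05). SKA1 was not tested for its low level. It had 0.303, 0.153 and 0.375 FPKM with RSGL, 1.11, 0.304 and 0.151 with BSGL, and 0.383, 0.288 and 0.198 in control libraries, so that BSGL library 1 was the highest and all groups overlapped.

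Of the 6 spindle checkpoint genes 5 fell and 1 was not called, beside 27.6% of all tested genes called lower. TTK (gene ID 7272, chr6:80004147-80043577, plus strand) encodes the kinase that starts checkpoint signalling at unattached kinetochores. Its values were 5.93, 5.94 and 6.08 FPKM with RSGL, 10.6, 11.4 and 11.3 with BSGL, and 10.9, 11.6 and 10.99 in control libraries. The RSGL libraries lay close together and apart from the rest, at 53.6% of control (log2 -0.80, SE 0.0424, limma adjusted p 2.25e-07). BUB1 (gene ID 699, chr2:110637698-110678107, minus strand) encodes a kinase that binds KNL1 and marks the centromere for shugoshin. It had 18.1, 17.2 and 17.6 FPKM with RSGL, 30.0, 28.7 and 30.8 with BSGL, and 28.5, 30.0 and 30.0 in control libraries. No RSGL library overlapped the others, and the RSGL mean was 59.8% of control (log2 -0.71, SE 0.0384, limma adjusted p 2.62e-07). MAD2L1 and BUB1B, which encode components of the inhibitor of the anaphase promoting complex, were at 62.2% and 64.0% of control with RSGL. BUB3, a further component and with 74.4 ± 1.35 FPKM in RSGL libraries against 90.8 ± 2.08 in control libraries (SD, n = 3 each) the most abundant member per length, was at 81.9%. MAD1L1 (gene ID 8379, chr7:1815792-2232971, minus strand), whose product holds MAD2 at kinetochores, had 6.15, 6.49 and 5.42 FPKM with RSGL, 5.38, 4.90 and 5.87 with BSGL, and 5.56, 5.89 and 5.62 in control libraries. RSGL library 3 lay below every control library and the other 2 above them. The difference was 0.07 (95% interval -0.09 to 0.22, limma adjusted p 0.454).

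Both shugoshins, which guard the cohesion of sister centromeres, fell, to different extents, beside 27.6% of all tested genes called lower. SGO2 (gene ID 151246, chr2:200510198-200584095, plus strand) had 4.28, 4.31 and 4.72 FPKM with RSGL, 7.52, 7.74 and 7.25 with BSGL, and 6.96, 7.39 and 7.44 in control libraries. Its RSGL libraries did not overlap the others and stood at 61.1% of control (log2 -0.60, SE 0.0490, limma adjusted p 4.37e-06). SGO1 (gene ID 151648, chr3:20160593-20188143, minus strand) had 2.77, 3.15 and 2.71 FPKM with RSGL, 3.64, 3.55 and 3.98 with BSGL, and 3.23, 3.52 and 3.37 in control libraries. The RSGL mean was 85.3% of control (log2 -0.18, SE 0.0615, limma adjusted p 0.0345). This call was lost without RSGL library 1 or 3 (adjusted p 0.0961 and 0.104 by limma) and without control library 2 or 3 (adjusted p 0.109 and 0.0708 by limma). It was also lost with no filter on low values (limma adjusted p 0.0778), with only the groups compared in the fit (limma adjusted p 0.0518) and with the replicate block (limma adjusted p 0.0522).

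**Figure D4:**
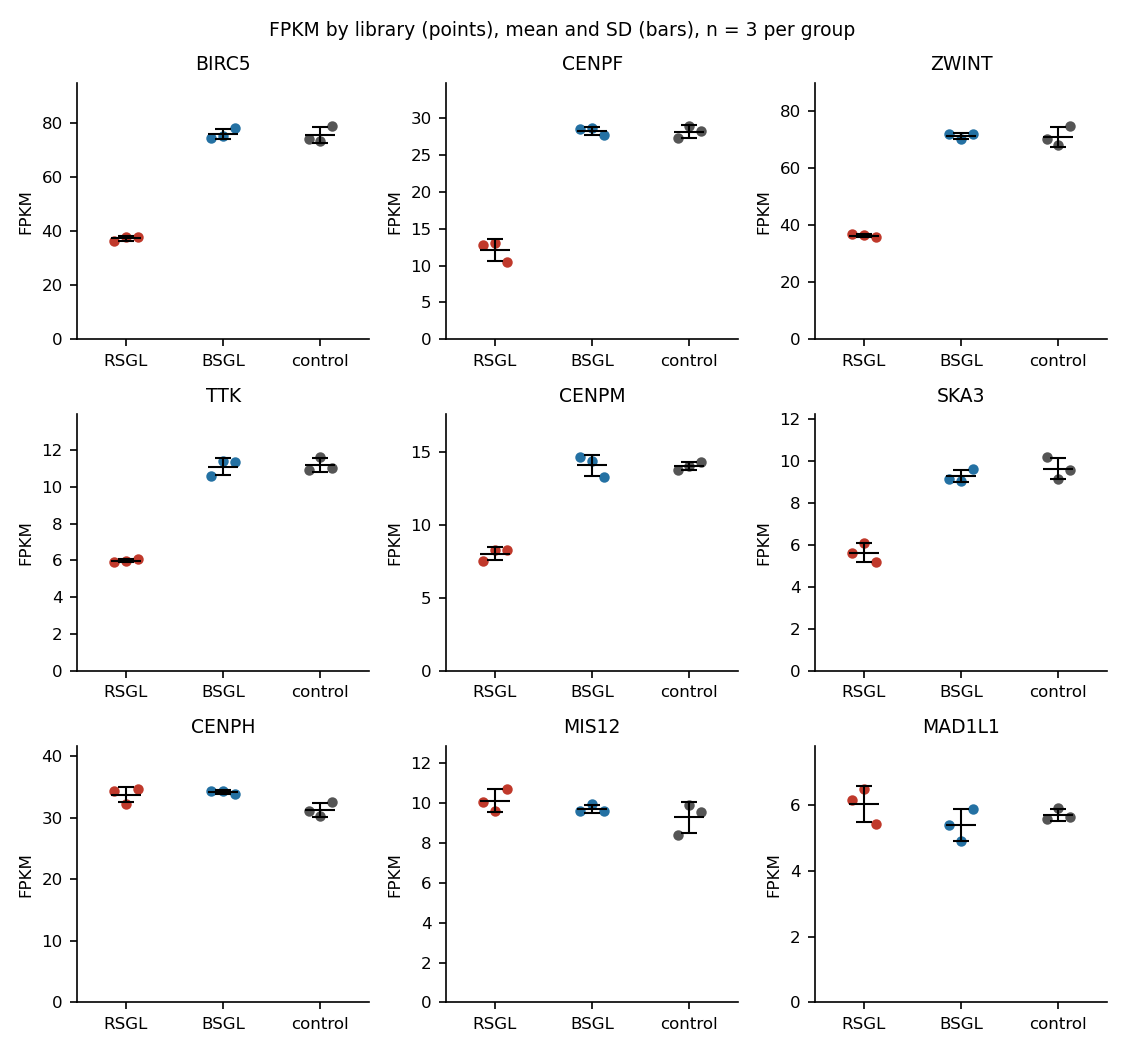
FPKM by library (points) with the mean and SD of each group (bars, n = 3), RSGL, BSGL and control from left to right. In the upper 6 panels (BIRC5, CENPF, ZWINT, TTK, CENPM and SKA3) the RSGL libraries lie below all others, and in the lower 3 (CENPH, MIS12 and MAD1L1) RSGL and control libraries overlap.

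Of the 14 inner kinetochore genes 12 fell, 1 rose and 1 was not called, with a median of -0.43. Over all tested genes 27.6% were called lower and 27.2% higher. CENPM (gene ID 79019, chr22:41927747-41947164, minus strand) encodes a subunit of the inner kinetochore complex that also holds CENPH, CENPI and CENPK. It had 7.52, 8.30 and 8.29 FPKM with RSGL, 14.6, 14.4 and 13.3 with BSGL, and 13.7, 14.04 and 14.3 in control libraries. The RSGL libraries lay apart, at 57.2% of control (log2 -0.74, 95% interval -0.85 to -0.62, limma adjusted p 1.29e-06). CENPU (gene ID 79682, chr4:184694065-184734132, minus strand), which recruits the mitotic kinase PLK1, had 9.41, 8.94 and 7.89 FPKM with RSGL, 15.1, 14.5 and 14.6 with BSGL, and 14.6, 14.3 and 15.4 in control libraries. It too showed no overlap, at 59.3% of control (log2 -0.69, SE 0.0582, limma adjusted p 5.54e-06). CENPN and CENPL, which read the CENPA nucleosome together, were at 59.0% and 63.1% of control with RSGL. CENPI was at 61.3%, CENPO at 62.7%, CENPK at 68.6% and CENPW at 71.6%. CENPQ averaged 5.85 ± 0.815 FPKM with RSGL, 7.91 ± 0.983 with BSGL and 7.80 ± 0.483 in control libraries (SD, n = 3 each).

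CENPA itself, the histone variant that defines the centromere, averaged 19.9 ± 0.493 FPKM with RSGL, 27.4 ± 0.465 with BSGL and 26.7 ± 0.979 in control libraries (SD, n = 3 each). It was thus at 74.5% of control with RSGL. CENPC, which links CENPA nucleosomes to the outer layer, was at 73.2%. CENPP, a low gene with 1.65 ± 0.164 FPKM with RSGL and 2.06 ± 0.217 in control libraries (SD, n = 3 each), was at 79.9% (limma adjusted p 0.0375). Its call was lost without RSGL library 1 or 2, without BSGL library 1, without control library 2, with no filter and with only the groups compared, and the highest adjusted p among all limma alternatives was 0.139.

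CENPT (gene ID 80152, chr16:67828157-67847458, minus strand), a second link to the NDC80 complex, had 7.21, 7.64 and 8.09 FPKM with RSGL, 7.58, 8.41 and 8.44 with BSGL, and 9.26, 7.95 and 8.38 in control libraries. Control library 1 was the highest and the groups overlapped, with a difference of RSGL from control of -0.14 (95% interval -0.28 to 0.005, limma adjusted p 0.0933). CENPH (gene ID 64946, chr5:69189548-69210357, plus strand), the partner of CENPK, was the 1 member called higher. It had 34.3, 32.3 and 34.7 FPKM with RSGL, 34.3, 34.4 and 33.8 with BSGL, and 31.1, 30.3 and 32.6 in control libraries. The RSGL mean was 108% of control (log2 0.11, SE 0.0385, limma adjusted p 0.0395), with RSGL library 2 inside the control range. The call was lost in 12 of 20 alternatives, among them without RSGL library 1 or 3, without BSGL library 1, 2 or 3, and without control library 1 or 2, with adjusted p of up to 0.181 by limma.

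Reads of 8 members may be mixed with those of an expressed gene that overlaps on the opposite strand, since the strand setting is not known. Beside NSL1 they are CENPN, CENPO, CENPP, CENPQ, CENPT, CENPU and SKA3. Over CENPO, which changed by -0.62 on the log2 scale, lie PTRHD1, at 11.5 FPKM with RSGL and 17.2 in control libraries (log2 -0.54, limma adjusted p 0.000254), and ADCY3, at 12.8 FPKM with RSGL and 10.8 in control libraries (log2 0.23, limma adjusted p 0.000856). NUTF2, over CENPT, averaged 22.4 FPKM with RSGL and 26.6 in control libraries (log2 -0.24, limma adjusted p 0.000845), and THAP11, also there, was not called (log2 0.01, limma adjusted p 0.936). For CENPU the overlapping gene, PRIMPOL, averaged 4.23 FPKM with RSGL and 4.11 in control libraries (log2 0.03, limma adjusted p 0.705). For SKA3 it was MRPL57, at 13.7 FPKM with RSGL and 16.0 in control libraries (log2 -0.22, limma adjusted p 0.00108). The genes over CENPN (CMC2), CENPP (NOL8 and IPPK) and CENPQ (MUT) were not called, with changes of -0.10 to -0.02. The part of these genes in the members' values was not tested. PMF1 also shares sequence with the readthrough gene PMF1-BGLAP, which averaged 0.0877 FPKM with RSGL and 0.189 in control libraries. BUB1B likewise overlaps the readthrough gene BUB1B-PAK6, at 0.0187 FPKM with RSGL and 0.0224 in control libraries.

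With BSGL, at the same dose and time, 0 of the 42 tested members were called, on a background of 0.0861% of all tested genes called by limma with Benjamini-Hochberg adjustment. Limma-voom on fragments recovered from the FPKM also called 0 members. At an unadjusted p under 0.05 there was 1 member, CENPH, beside 6.71% of all tested genes. CENPH was at 109% of control with BSGL, a difference of 0.12 (95% interval 0.04 to 0.21, adjusted p 0.537 by limma), and all 3 BSGL libraries lay above all 3 control libraries. The RSGL and BSGL comparisons share the control libraries, so that the similar values of CENPH in both are not independent. The members stood at 87.5% (CENPC) to 110% (SGO1) of control with BSGL, with a median change of 0.01 on the log2 scale against 0.0054 over all tested genes. The 95% intervals of all 42 changes lay between -0.28 and 0.33. BSGL libraries lay wholly below control in 1 member (CENPC), as in 5.63% of all tested genes, and wholly above it in 3 (KNL1, SGO1 and CENPH), as in 7.16%.

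**Figure D5:**
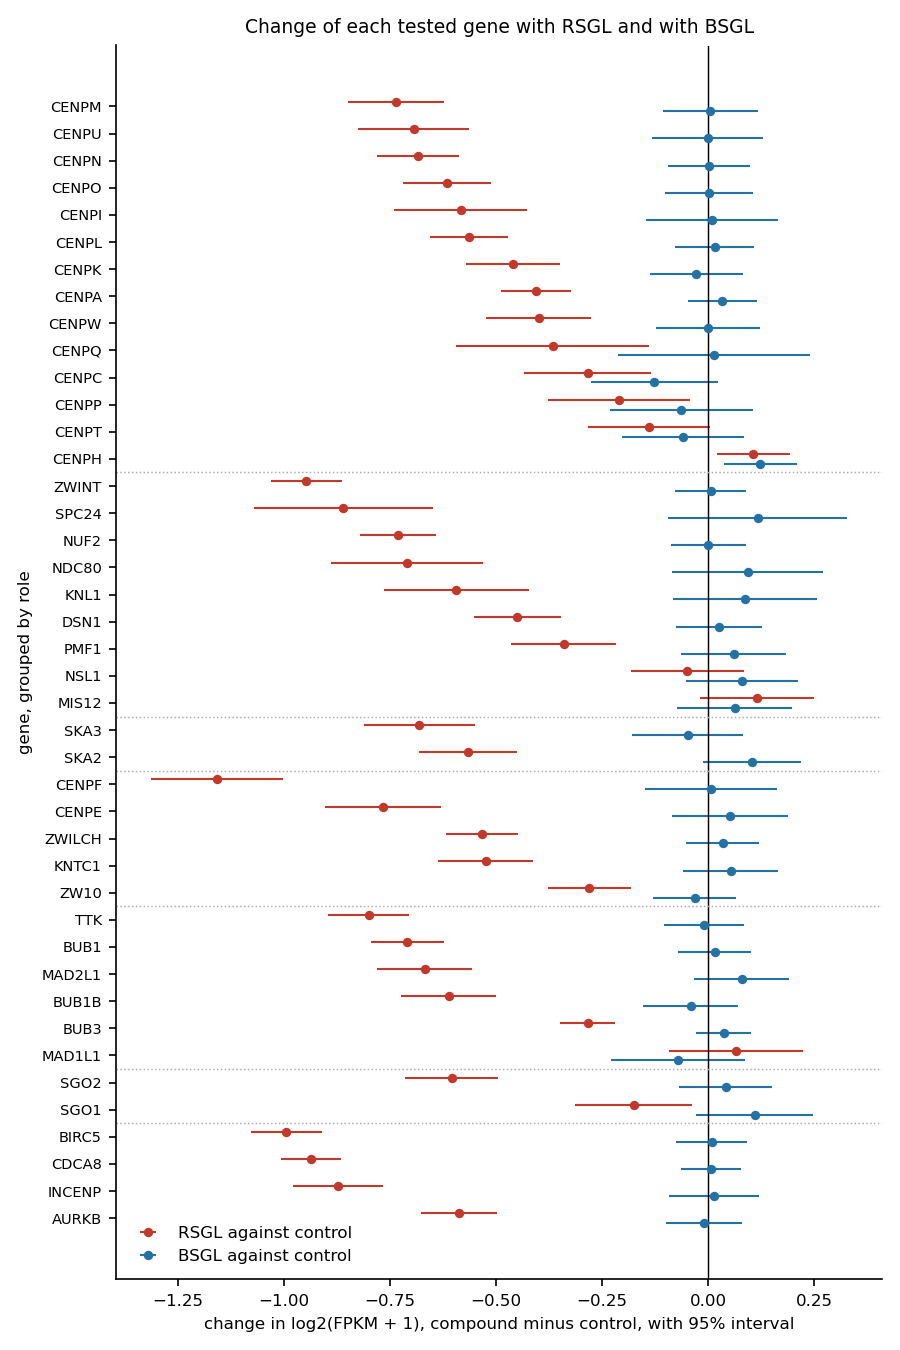
Change in log2(FPKM + 1), compound minus control, of each of the 42 tested genes by role, with its 95% interval from limma, for RSGL (red) and BSGL (blue). With RSGL the changes run from -1.16 (CENPF) to 0.12 (MIS12), and with BSGL from -0.13 (CENPC) to 0.12 (CENPH).

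Set against each other at 10 µM and 24 h, RSGL and BSGL differed in 35 of the 42 genes, all lower with RSGL, on a background of 27.5% of all tested genes called lower and 26.5% called higher by limma. The median difference was -0.59, and 26 members were lower by at least 0.5, as were 6.85% of all tested genes. CENPF was at 42.9% of its BSGL level with RSGL (log2 -1.16, SE 0.0694, limma adjusted p 5.79e-07), SPC24 at 46.3% (log2 -0.98, SE 0.0939, limma adjusted p 1.80e-05) and BIRC5 at 49.2% (log2 -1.004, SE 0.0373, limma adjusted p 2.54e-08). This comparison uses the same RSGL libraries as that with control. By the genotype tags the cell line differs here too, and it cannot be told apart from the compound. The 7 not called were the 4 that also missed the threshold against control, and CENPC, CENPH and CENPP. Their 95% intervals, RSGL minus BSGL, were -0.22 to 0.06 for CENPT, -0.26 to 0.0034 for NSL1, -0.08 to 0.19 for MIS12, -0.02 to 0.29 for MAD1L1, -0.31 to -0.01 for CENPC, -0.10 to 0.07 for CENPH and -0.31 to 0.02 for CENPP. The interval of CENPC lies below 0, and its adjusted p by limma was 0.0708. CENPC was called lower than with BSGL without trend and robust options and with voom (lowest adjusted p by limma 0.0342), and NSL1 with quantile scaling and voom (lowest adjusted p by limma 0.0203).

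Genes of the same machinery outside the 44 are described from 4 lists, whose counts with RSGL stand beside 27.6% of all tested genes called lower and 27.2% called higher. Of 16 genes for centromere assembly and other kinetochore proteins 15 were tested, 11 fell, 3 rose and 1 was not called, with a median of -0.32. OIP5 and HJURP, which load CENPA onto centromeres, were at 51.1% and 55.4% of control. The genes that rose were CENPV (148%), BOD1 (122%) and NDEL1 (135%), a dynein regulator. Of 24 checkpoint partners and subunits of the anaphase promoting complex, the ligase that the checkpoint restrains, 17 fell, 2 rose and 5 were not called, with a median of -0.28. PLK1, a mitotic kinase, was at 47.2% of control with RSGL, ESPL1, the separase that cuts cohesin, at 54.2% and CDC20, the activator that the checkpoint holds, at 68.1%. The 2 that rose were the ligase subunits ANAPC13 (122%) and CDC26 (115%).

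On the same background of 27.6% lower and 27.2% higher, of 13 genes of cohesin, the ring that holds sister chromatids, and its regulators, 10 fell, 1 rose and 2 were not called, with a median of -0.31. The acetyltransferases ESCO2 and ESCO1 went opposite ways, ESCO2 at 38.3% of control and ESCO1 at 129%. Of 19 transcription factors of cell cycle genes 18 were tested, 11 fell, 1 rose and 6 were not called, with a median of -0.22. Among them E2F8, a repressor of the E2F family, was at 29.0% of control, FOXM1 at 53.4% and MYBL2 at 67.8%. The MuvB subunits went different ways. LIN37, at 121% of control, was the 1 gene that rose, LIN9 (80.4%) and RBBP4 (78.9%) fell, and LIN52 and LIN54 were not called. With BSGL 0 genes of any of these 4 lists were called by limma, beside 0.0861% of all tested genes, with medians between -0.03 and 0.01.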

How the data were processed

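Per the file headers, the authors deposited FPKM per gene for 9 libraries, beside NCBI gene IDs, lengths and positions whose sequence accessions are those of GRCh38. TRIzol extraction and a NEBNext Ultra kit are named per the labels' protocols. HISAT2 2.0.5 (also as 2.0), featureCounts 1.5.0-p3 and DESeq2 1.16.1 appear, with no role for each, per the submitters' processing notes, and the strand setting of the counting is not stated. FPKM times gene length came in whole steps, within 0.01 for 100% of values under 300 fragments, so fragments could be recovered. Tested members held 145 to 5951 fragments per library.

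Values were analysed as log2(FPKM + 1) with limma 3.58.1 (R 4.3.3, statmod 1.5.0), 1 term per group, intensity trend and robust moderation, over genes that reached 1 FPKM in 3 or more libraries, with Benjamini-Hochberg adjustment. The pipeline was tested on simulated data. Members and gene lists were chosen with earlier results of these data known, so no list was tested. Values in every library are given for the 2 members of each role with the largest change among those of at least 2 FPKM, and for members called higher or not called with RSGL; other members and list genes were named for their role after their values were seen. Motifs were searched as plain letters. Alternatives changed pseudocount, filter, scaling, moderation, the libraries fitted, the replicate block and the test (voom).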

Additional observations from a re-analysis of the deposited data

How the results depend on the processing

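The alternatives numbered 20. Of the 37 members lower with RSGL than control 35 were lower in every alternative they entered, the exceptions being SGO1 and CENPP, and so were all 35 lower with RSGL than BSGL. The members lower with RSGL than BSGL numbered 36 with quantile scaling and 37 with voom. Members called with BSGL numbered 0 throughout. The median change with RSGL against control was -0.65 with a pseudocount of 0.1, -0.62 with 0.5, -0.67 with each library rescaled to a common sum and -0.65 with voom on recovered fragments. Against BSGL it was -0.67, -0.64, -0.66 and -0.67 in that order, -0.62 with a filter at 5 FPKM, and -0.62 to -0.57 with 1 library left out. The BSGL median was -0.0169 with the common sum, -0.0006 with voom and -0.0012 to 0.0227 with 1 library left out. The common sum also moved the higher share of all RSGL calls against control to 43.5%, against 49.7% as deposited.

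The members called higher with RSGL numbered 0 without the filter, with the common sum, with only the groups compared, without trend and robust options and with voom, and 0 to 1 with 1 library left out. Against BSGL they numbered 0 to 1, since MAD1L1 was called without RSGL library 3 (limma adjusted p 0.0357). CENPH changed sign against BSGL with quantile scaling (0.0281) and without RSGL library 2 (-0.0359 to 0.0147 over the libraries left out), and NSL1 against control without control library 3 (-0.0787 to 0.0032). Over all genes, BSGL calls numbered 11 as reported, 0 without the filter, with the common sum, without trend and robust options or with the replicate block, 2 with only the groups compared, 31 with voom and 0 to 8 with 1 library left out. The causes were not tested.

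Over the tested genes, libraries of the same number did not deviate together (r of -0.212 to 0.121, 1 of 9 pairs over 0.1). This cannot show whether the numbers mark a shared culture or batch. SPC25, which did not pass the filter, had its high BSGL and control values in libraries of the same number, though not its highest RSGL value. With the replicate block 36 members were lower with RSGL than control, and SGO1 was not called (limma adjusted p 0.0522). The FPKM of low genes such as SPC25 and SKA1 limit what can be tested, and the length of a gene model sets its level.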
